A study of Mus musculus with 4 samples.

Results

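The genes described here encode the Mediator complex, the general transcription factors and the subunits of RNA polymerase II. They were chosen by symbol alone as the protein-coding RefSeq genes of mouse build GRCm38 whose names start with Med or Taf followed by a digit, with Gtf2, or with Polr2. The rule gave 83 of 21883 protein-coding genes, of which 30 are Mediator genes, 24 are Taf genes, 16 are Gtf2 genes and 13 are Polr2 genes. The Taf genes are called TFIID genes below, although some of their products are known for other complexes. Sub1 was profiled by CUT&Tag, in which an antibody tethers a transposase to chromatin so that DNA near the bound protein is cut and sequenced. Hematopoietic stem cells (HSCs) were sorted as CD48-CD150+LSK cells from bone marrow of Nup214fl/+ mice, and leukemia stem cells (LSCs) from mice of the same genotype whose leukemia was driven by MLL-AF9. The LSC gate took cells positive for c-Kit, CD34 and CD16/32 and negative for lineage markers and Sca-1. There were 2 libraries in each group. Both groups therefore carried 1 floxed and 1 wild-type Nup214 allele. The labels name no Cre driver, age or sex, do not say how MLL-AF9 was introduced, and do not say whether the 2 libraries of a group came from different mice. The authors deposited 1 peak list per library.

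Transcription by RNA polymerase II starts when TFIID recognises a core promoter and TFIIA, TFIIB, TFIIF, TFIIE and TFIIH join it and the polymerase in a pre-initiation complex. Mediator bridges this complex and the activators bound at promoters and enhancers, and its separable kinase module can hold it back. Sub1, called PC4 in human cells, is a DNA-binding cofactor that was purified there for its ability to let activators work through the general factors. The comparisons below concern Sub1 signal on the genes that encode this machinery.

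The lists held 115881 peaks in HSC 1, 235680 in HSC 2, 41097 in LSC 1 and 34185 in LSC 2. The caller's background, recovered from each list as the only available measure of depth, was 3.07, 7.47, 4.54 and 4.50 reads in the same order, so the deepest library also had the longest list. HSC 1 had the lowest background and still a longer list than either LSC library. Peaks were also narrower in HSCs, with median widths of 372, 462, 591 and 841 bp. Because of these differences, groups were compared by the rank of a peak by -log10 p, within the strongest 34185 peaks of each library (lists of equal length) or within shorter lists of the strongest 17092, 8546 and 4273. Fold is the authors' own value for a peak, its pileup over that background, and it is used only to describe a peak within its list. In the deposited lists, all 6 HSC marker genes had a peak in each HSC library, 4 in LSC 1 and 2 in LSC 2. Slamf1 and Ly6a, which encode CD150 and Sca-1, had peaks there in the HSC libraries alone. In lists of equal length 3, 4, 4 and 2 HSC markers had a peak (HSC 1, HSC 2, LSC 1 and LSC 2), with Ly6a in the HSC lists alone. Among the strongest 8546 peaks the counts were 0, 0, 1 and 1, with Kit in the LSC lists alone. All 6 neutrophil markers, S100a8, S100a9, Ltf, Ngp, Cxcr2 and Camp, had a peak in every library. Among the strongest 8546 peaks all 6 were present for each HSC library, none for LSC 1 and 2 for LSC 2, although mature neutrophils lie outside both sorts. The 6 LSC markers were Kit, Cd34, Fcgr3, Fcgr2b, Hoxa9 and Meis1. Of these, 5 had a peak in the deposited list of LSC 2 and all 6 in those of the other libraries. Meis1 was the gene absent from LSC 2, and it ranked 67250, 31025 and 36186 in HSC 1, HSC 2 and LSC 1. In lists of equal length 4, 5, 5 and 5 LSC markers had a peak. Among the strongest 8546 peaks the counts were 2, 2, 5 and 4. Kit, Cd34 and Hoxa9 ranked higher in both LSC libraries. Fcgr3 ranked higher in both HSC libraries, at 110, 439, 4386 and 2936, and the groups overlapped for Fcgr2b. The deposited lists held peaks at 2, 2, 2 and 1 of 4 erythroid genes, at 4, 4, 2 and 2 of 4 B cell genes and at 2, 4, 2 and 1 of 4 T cell genes. Lists of equal length held a peak at 1 erythroid gene in each library. The counts there were 1, 3, 2 and 2 for B cell genes and 1, 2, 1 and 1 for T cell genes. Of the B cell genes, Ms4a1 had a peak there in the LSC lists alone. The part of other cell types in the differences between groups given below was not tested. All 4 samples, LSCs included, are labelled by cell type as hematopoietic stem cells, and H4-Cut precedes every peak name, a term left unexplained in the labels.

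Sub1 peaks covered nearly the whole machinery in both cell types. A peak overlapped the gene or the 1 kb on either side in 80, 82, 80 and 80 of the 83 genes in HSC 1, HSC 2, LSC 1 and LSC 2, where the share of all protein-coding genes was 68.9%, 82.4%, 61.8% and 57.4%. In all 4 libraries at once 80 of the 83 genes had a peak, or 96.4%, against 55.4% of all protein-coding genes. All 30 Mediator genes and all 13 polymerase II genes had a peak in every library, as did 22 of 24 TFIID genes and 15 of 16 Gtf2 genes. No gene had a peak in both libraries of 1 group and in neither of the other, a pattern that 7.70% of all genes showed for HSCs and 0.0960% for LSCs. With lists of equal length, 78, 79, 80 and 80 genes had a peak (53.5%, 55.9%, 59.9% and 57.4% of all genes), and 78 had one in all 4 (49.3%).

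Shorter lists were used to describe the classes. Among the strongest 8546 peaks of each library, 61, 67, 72 and 75 of the 83 genes had a peak (HSC 1, HSC 2, LSC 1 and LSC 2 in turn), beside 39.1%, 38.3%, 42.3% and 42.2% of all genes. The groups did not overlap, with a mean of 64.0 ± 4.24 genes in HSCs and 73.5 ± 2.12 in LSCs (SD, n = 2 libraries each; exact permutation p = 0.33, two-sided). With 2 libraries a side, 0.33 is the smallest p that this test can give. In all 4 of these lists stood 22 of 30 Mediator genes (73.3%), 9 of 13 polymerase II genes (69.2%), 15 of 24 TFIID genes (62.5%) and 10 of 16 Gtf2 genes (62.5%), beside 32.7% of all genes. A list of 10 genes known for other complexes held Taf1a, Taf1b, Taf1c, Taf1d, Taf5l, Taf6l, Taf15, Gtf2i, Gtf2ird1 and Gtf2ird2. Without them the counts for TFIID and Gtf2 were 10 of 17 (58.8%) and 9 of 13 (69.2%). All other Taf genes stayed in the 17, whether or not their products also serve another complex. Among the strongest 4273 peaks there were 14 Mediator genes (46.7%), 5 polymerase II genes (38.5%), 6 TFIID genes (25%) and 3 Gtf2 genes (18.8%) in all 4, beside 14.5% of all genes. The order was not the same in each library, since in LSC 2 at that length 50% of Gtf2 genes and 41.7% of TFIID genes had a peak. These are counts of genes in 4 lists, and no test between the classes was made. At 8546 peaks, only Med27, listed here with the Mediator head, and Taf9b stood in both LSC lists and neither HSC list. No gene showed the opposite pattern, and the shares of all genes for the 2 patterns were 2.22% and 0.987%.

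The excess of LSC over HSC genes depended on the length of the list. Among the strongest 17092 peaks, 76, 77, 80 and 80 genes had a peak (47.6%, 47.9%, 54.3% and 53.1% of all genes), and 74 had one in all 4 (43.8%). Among the strongest 4273 peaks the numbers were 40, 39, 38 and 41 (23.6%, 23.4%, 23.9% and 24.5% of all genes), and the groups overlapped. The genes absent from an HSC list and present in both LSC lists at 17092 peaks were Med12l, Polr2k, Taf1a and Taf9b in HSC 1 and Gtf2h2, Taf4b, Taf1a and Taf9b in HSC 2. Taf1a and Taf9b were thus in both LSC lists and neither HSC list there, a pattern of 3.87% of all genes, and no gene showed the opposite one (0.356%). At 4273 peaks, Gtf2e1 and Med4 were in the LSC lists alone (1.66% of all genes), and Med31, Polr2a and Taf13 in the HSC lists alone (1.67%).

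**Figure D1:**
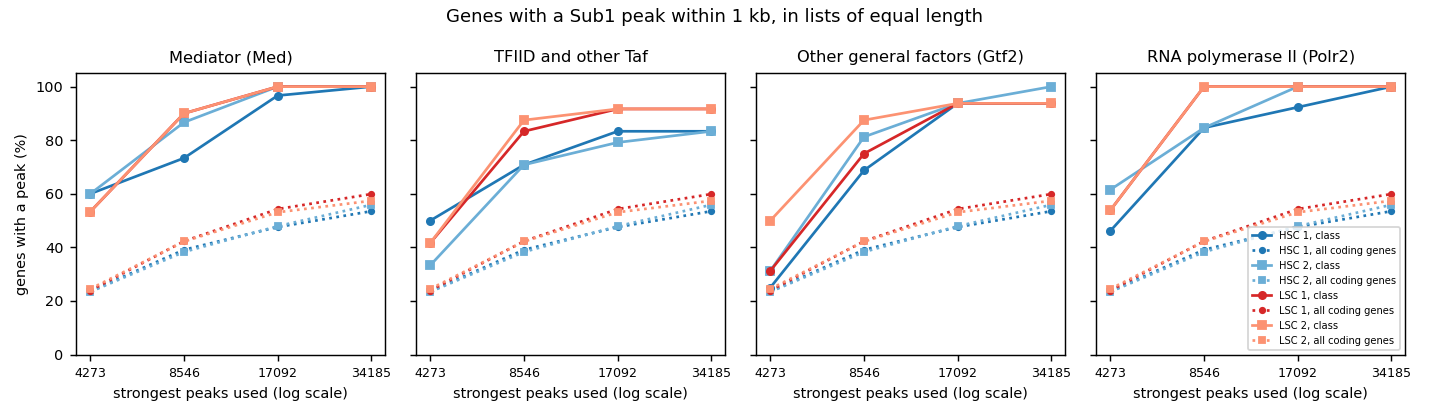
Share of genes with a Sub1 peak within 1 kb (y axis, %) among the strongest 4273, 8546, 17092 and 34185 peaks of each library (x axis, log scale). Solid lines are the genes of the class and dotted lines all 21883 protein-coding genes. Every class lies above all genes at each length, and at 4273 peaks the Gtf2 class lies nearest to them in HSC 1, HSC 2 and LSC 1.

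The median rank of the strongest peak per gene was 4400, 5139, 4486 and 4358 in HSC 1, HSC 2, LSC 1 and LSC 2 when genes without a peak in the list of equal length were placed last. For all protein-coding genes, of which a larger share lacked a peak and stood last, it was 22857, 20905, 11827 and 12004. The mean of the library medians was 4770 ± 523 in HSCs and 4422 ± 90.5 in LSCs (SD, n = 2), a difference of -347.5 ranks that lay within the spread of the HSC libraries (exact permutation p = 0.67, two-sided). Median fold over the genes with a peak was 32.9, 39.2, 124.1 and 88.5, against 23.8, 22.1, 102.5 and 73.8 for all genes with a peak. The median width of the strongest peak was 2331, 2406, 2617 and 3061 bp, against 1500, 1420, 2353 and 2789 bp for all genes. Among autosomal genes with a peak in the lists of equal length, the median rank was 3998, 3941, 4173 and 3781.5 for these genes. It was 4899, 5266, 5412 and 5032.5 for all such genes, a smaller gap than with absent genes placed last. In every library the peaks of these genes were therefore higher in rank, higher in fold and wider than the median gene.

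**Figure D2:**
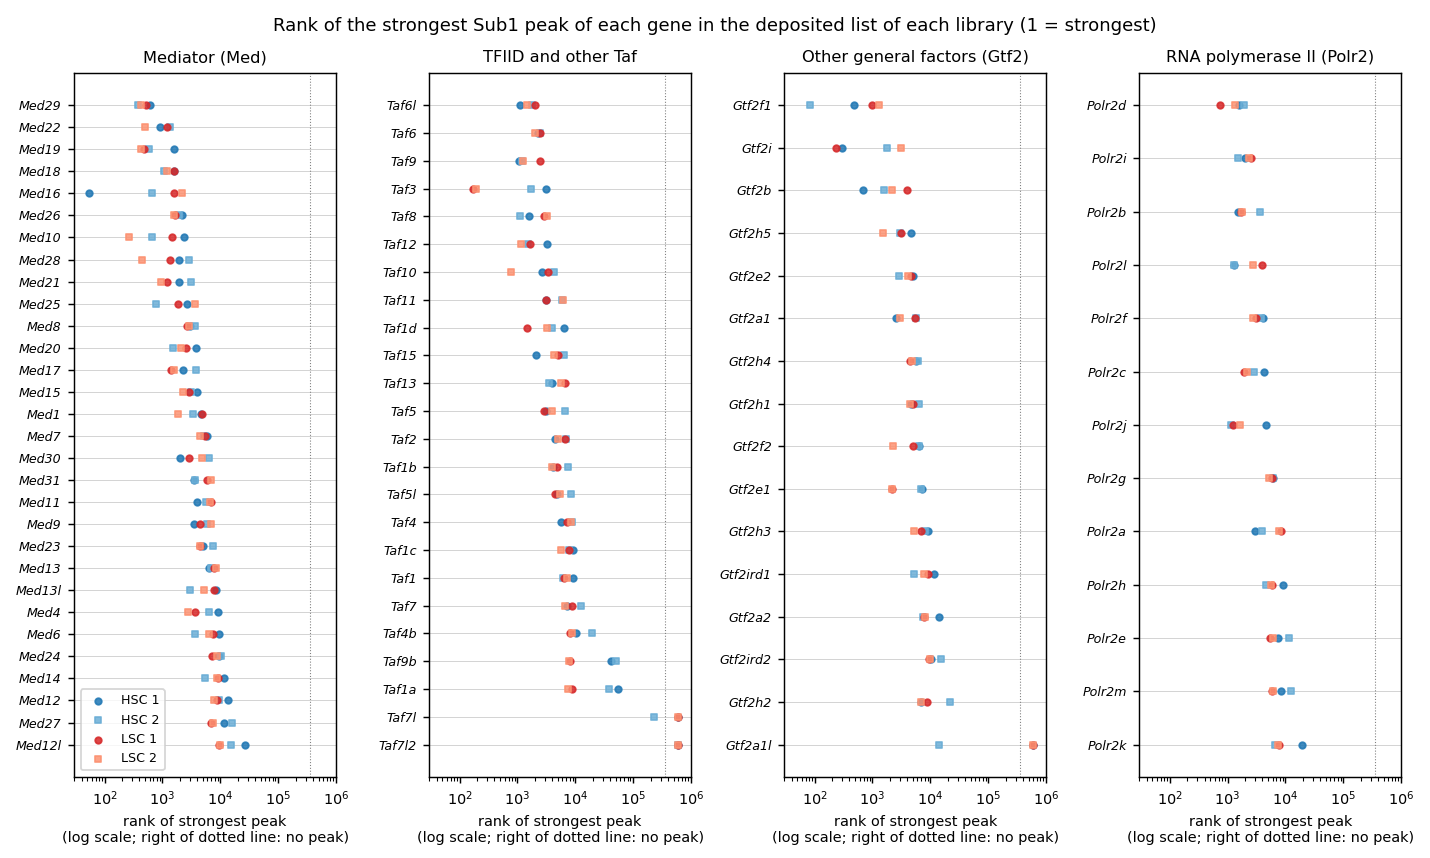
Rank of the strongest Sub1 peak of each of the 83 genes in the deposited list of each library (x axis, log scale; 1 is the strongest peak), with HSC libraries in blue and LSC libraries in red. Points right of the dotted line mark a library without a peak, and only Taf7l, Taf7l2 and Gtf2a1l have such points. Among the genes with peaks in all 4 libraries, Taf9b and Taf1a have the highest rank numbers in HSCs.

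The Mediator genes had median ranks of 3655.5, 3608.5, 3264.5 and 3269, the highest of the 4 classes in every library but LSC 2, where the polymerase II genes stood at 2738. The modules here follow a set list of genes, and the placing of single genes was not tested. The 11 genes listed for the head module, which contacts the polymerase, had median ranks of 2266, 3596, 2555 and 2131. The 9 genes of the middle module had 3482, 3358, 3647 and 1888. The 5 tail genes, whose products meet many activators, had 3998, 3095, 2882 and 3610. The 4 genes of the kinase module (Med12, Med12l, Med13 and Med13l) stood lower than head, middle and tail in each library, at 11098, 8306, 8265 and 8033. Med14, which encodes the backbone subunit that joins head, middle and tail, ranked 11572, 5404, 9004 and 8622.

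Med19, which encodes a subunit that links Mediator to the polymerase, was the best ranked Mediator gene with all 4 summits in its promoter. Its strongest peak ranked 1576, 596, 489 and 423 in HSC 1, HSC 2, LSC 1 and LSC 2, with folds of 48.4, 88.7, 251.1 and 194.4. The 4 summits lay within 109 bp of each other, at +39, -70, -29 and -32 bp from the annotated start. Both LSC libraries ranked it above both HSC libraries, and every peak also reached the window of Tmx2. Its promoter is shown, with that of Polr2b, because these lead their classes among genes whose 4 summits fell inside the window from 250 bp before to 50 bp after the start. Capitals mark matches to the motifs listed with the promoter counts below, on either strand; Med19 holds the CCAAT motif 5 times and CCGGAAG once. The RefSeq promoter of build GRCm38.p6 lies at chr2:84678152-84678451, plus strand.
Med19 promoter: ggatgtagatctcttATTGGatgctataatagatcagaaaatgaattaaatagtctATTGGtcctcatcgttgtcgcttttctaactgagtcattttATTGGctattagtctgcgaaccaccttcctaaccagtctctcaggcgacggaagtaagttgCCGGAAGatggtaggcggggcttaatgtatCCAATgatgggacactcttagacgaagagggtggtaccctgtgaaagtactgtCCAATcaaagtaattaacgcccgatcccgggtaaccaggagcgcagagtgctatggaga

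The other leading Mediator genes shared their peaks with neighbours. Med29, listed here with the head, ranked 610, 371, 526 and 428. Its strongest HSC peaks were 25012 and 20999 bp wide with summits nearest the start of Zfp36. Its strongest LSC peaks were 3660 and 5432 bp wide with summits 32 bp from the start of Paf1. Each site also had a peak in the other group. HSC 2 had a peak at rank 759 with its summit 30 bp from the Paf1 start. LSC 1 and LSC 2 had peaks at ranks 5031 and 2704 with summits 132 and 232 bp from the Zfp36 start. Med22, a head gene, ranked 904, 1351, 1204 and 504 with peaks that also covered Rpl7a and Surf1. The summit lay nearest the Med22 start in HSC 2 and LSC 1 and nearest the Rpl7a start in HSC 1 and LSC 2. A high rank at these genes thus belongs to a compact group of starts and not to the Mediator gene alone.

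By the weakest of their 4 ranks, the lowest Mediator genes were Med12l, Med27 and Med12. Med12l, the paralog of Med12, ranked 26324, 15248, 9375 and 10017 with folds of 10.3, 17.4, 44.9 and 24.0. None of its strongest peaks lay at its start: the summits stood 94257, 203339, 93889 and 94503 bp into the 313028 bp gene, and a start peak was found in LSC 1 alone, at rank 17967. Those strongest peaks lay in the windows of Gpr171 (HSC 1, LSC 1 and LSC 2) and P2ry13 (HSC 2), receptor genes that lie inside Med12l. Med12, on the X chromosome, ranked 13611, 9567, 8639 and 7767, with summits between -465 and +342 bp of its start. Med27 ranked 11722, 15847, 6933 and 7535, and both LSC ranks were above both HSC ranks for each of these 3 genes. Med13 ranked 6295, 7045, 7723 and 8298 and Med13l 8584, 2973, 7890 and 5215, so neither paralog of that pair shared the direction of Med12 and Med12l.

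Among TFIID genes the median ranks were 4276.5, 6480, 4940 and 5220.5. Taf6 encodes a histone-fold subunit of the TFIID core, and its peak was the most even of the class, at ranks of 2306, 2449, 2436 and 2012 with summits between -5 and +230 bp of the start. Taf6l, its paralog, whose product belongs to the SAGA coactivator, ranked 1107, 1765, 2028 and 1463. All 4 Taf6l summits lay about 11 to 12 kb from its own start and within 827 bp of the start of Tmem179b. The start peak of Taf6l itself ranked 2462, 4798, 2688 and 2611.

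Taf3 encodes a TFIID subunit that reads trimethylated lysine 4 of histone H3, and it gave the largest rank difference in favour of LSCs among the 78 genes present in all 4 lists of equal length. The gene spans chr2:9914552-10048609 (GRCm38). Its strongest peak ranked 3139 (HSC 1), 1705 (HSC 2), 173 (LSC 1) and 188 (LSC 2), with folds of 38.1, 64.9, 303.6 and 225.2. Both LSC ranks stood far above both HSC ranks, a difference of -3.68 in mean log2 rank. The summit lay at +407 bp in HSC 1 and at +66, +62 and +62 bp in the other libraries, and no other protein-coding gene shared the peak.

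The paralogs Taf9 and Taf9b had contrasting peaks. Taf9 ranked 1044, 1197, 2499 and 1236 with folds of 54.3, 72.6, 164.1 and 149.4. Its 4 summits fell within 6 bp of each other, 339 to 345 bp before the Taf9 start and 57 to 63 bp from the start of Rad17, and the peaks also covered Ak6. Taf9b, on the X chromosome at chrX:106206874-106221158, ranked 41751, 50140, 8075 and 7744 with folds of 8.60, 10.3, 64.8 and 44.9. The LSC summits lay at +245 and +185 bp of an annotated start, the HSC 1 summit at +99 bp, and the HSC 2 peak stood at the far end of the gene, 12715 bp from a start. HSC 2 held no start peak of Taf9b, although it had the longest list. The promoters are shown to set these paralogs side by side, since Taf9 was in every list of equal length and Taf9b in the LSC lists alone; they were picked after the values were seen. Taf9 lies at chr13:100651093-100651392 on the plus strand, with the GGGCGG motif 3 times. For Taf9b the window at chrX:106219793-106220092 on the minus strand belongs to the start under the peaks and holds none of the 7 motifs. Taf9 and Taf9b each have 2 promoter windows, and the Taf9b window not shown holds GGGCGG.
Taf9 promoter: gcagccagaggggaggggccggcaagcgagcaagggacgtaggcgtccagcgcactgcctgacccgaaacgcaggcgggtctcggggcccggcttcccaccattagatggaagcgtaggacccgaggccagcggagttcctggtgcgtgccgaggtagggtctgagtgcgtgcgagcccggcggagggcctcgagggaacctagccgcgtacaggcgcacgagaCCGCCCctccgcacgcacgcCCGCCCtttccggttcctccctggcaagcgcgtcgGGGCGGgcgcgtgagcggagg
Taf9b promoter: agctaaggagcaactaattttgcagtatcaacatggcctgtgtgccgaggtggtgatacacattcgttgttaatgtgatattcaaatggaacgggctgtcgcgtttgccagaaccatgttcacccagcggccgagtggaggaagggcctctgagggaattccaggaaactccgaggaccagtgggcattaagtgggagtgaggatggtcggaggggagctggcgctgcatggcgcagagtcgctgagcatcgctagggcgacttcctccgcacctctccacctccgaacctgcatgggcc

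Taf1a, Taf1b, Taf1c and Taf1d encode the TBP-associated subunits of SL1, the selectivity factor of RNA polymerase I. Taf1a ranked 54856, 38333, 8662 and 7623 with folds of 7.37, 11.5, 55.4 and 45.8, and all 4 peaks lay at the start, with summits at +572, +305, +156 and +142 bp. Taf1a and Taf9b were the only genes present in both LSC lists of equal length and in neither HSC list; 2.59% of all genes showed this pattern and 0.489% the opposite. In the deposited lists both genes had peaks in all 4 libraries. Taf1d ranked 6277, 3930, 1484 and 3180, Taf1c 9149, 7881, 7647 and 5651, and Taf1b 4153, 7589, 4920 and 3953. Both LSC ranks were above both HSC ranks for Taf1d (-1.19 in mean log2 rank) and Taf1c (-0.37), and the groups overlapped for Taf1b. The Taf1a promoter, also picked after its values were seen, lies at chr1:183388735-183389034 on the plus strand and holds CCGGAAG 3 times, CCAAT 2 times and GGGCGG once.
Taf1a promoter: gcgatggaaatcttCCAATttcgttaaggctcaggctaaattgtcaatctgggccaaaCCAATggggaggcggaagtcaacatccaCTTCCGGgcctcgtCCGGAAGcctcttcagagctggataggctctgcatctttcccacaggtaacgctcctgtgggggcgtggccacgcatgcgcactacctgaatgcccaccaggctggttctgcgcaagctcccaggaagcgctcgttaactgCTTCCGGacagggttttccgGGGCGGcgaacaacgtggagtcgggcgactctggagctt

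The Taf4 and Taf5 pairs had peaks in every library. Taf4 ranked 5591, 8748, 7093 and 8305 and Taf4b, known in the mouse for its role in germ cells, ranked 10088, 19210, 8189 and 8867. Taf5 ranked 3138, 6626, 2910 and 3962, and Taf5l, a SAGA gene, 4855, 8289, 4486 and 5379. Taf7, the relative of Taf7l, ranked 7231, 12713, 8848 and 6581. Taf4b alone of these had both LSC ranks above both HSC ranks.

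Only 3 of the 83 genes lacked a peak in at least 1 library, and all 3 are relatives of a general factor gene that had a peak in every library. Taf7l and Gtf2a1l, known in the mouse for roles in male germ cells, had peaks in HSC 2 alone. The Taf7l peak in that list ranked 226675 of 235680 with a fold of 3.07 and lay 16501 bp from the start, at the far end of the gene. Gtf2a1l had 2 peaks in its body, 24556 and 19018 bp from the start, at ranks 14070 and 39625 with folds of 18.1 and 11.3. Taf7l2 had no peak in any library. Gtf2a1, the relative of Gtf2a1l, which encodes the large subunit of TFIIA, ranked 2527, 5726, 5466 and 2956.

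The promoters of these 3 genes are shown because these genes lacked a peak in at least 1 library, and no library held a Sub1 peak in these windows. They were not poor in CpG: the ratio of observed to expected CpG was 1.03 for Taf7l, 0.714 for Taf7l2 and 0.801 for Gtf2a1l, against a median of 0.852 over the 72 genes with an annotated start and 0.213 over all genes without a start peak in any library. Taf7l lies at chrX:134476441-134476740 on the minus strand, and its capitals are overlapping TATAAA matches on both strands. Taf7l2 lies at chr10:116113868-116114167 on the minus strand with none of the motifs. Gtf2a1l lies at chr17:88668410-88668709 on the plus strand with GGGCGG once.
Taf7l promoter: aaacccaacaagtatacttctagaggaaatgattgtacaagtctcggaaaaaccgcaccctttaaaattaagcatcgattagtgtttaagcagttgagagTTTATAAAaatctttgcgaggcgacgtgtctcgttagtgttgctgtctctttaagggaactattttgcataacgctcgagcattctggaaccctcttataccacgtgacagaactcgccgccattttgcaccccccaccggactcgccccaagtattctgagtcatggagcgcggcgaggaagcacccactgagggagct
Taf7l2 promoter: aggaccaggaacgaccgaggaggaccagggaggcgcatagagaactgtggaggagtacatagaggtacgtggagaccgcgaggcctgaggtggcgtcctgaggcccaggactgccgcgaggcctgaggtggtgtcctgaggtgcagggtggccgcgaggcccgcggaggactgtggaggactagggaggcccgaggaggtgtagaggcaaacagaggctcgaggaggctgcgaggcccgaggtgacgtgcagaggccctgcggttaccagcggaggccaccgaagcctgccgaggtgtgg
Gtf2a1l promoter: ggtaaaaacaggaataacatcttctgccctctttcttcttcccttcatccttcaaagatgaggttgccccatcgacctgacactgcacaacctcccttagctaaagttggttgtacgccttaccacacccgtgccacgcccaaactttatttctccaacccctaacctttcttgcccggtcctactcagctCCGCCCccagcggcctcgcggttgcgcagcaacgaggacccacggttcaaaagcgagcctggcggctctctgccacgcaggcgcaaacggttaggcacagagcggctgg

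The Gtf2 genes had median ranks of 5942, 6195, 4968 and 4278. Gtf2f1 encodes the large subunit of TFIIF, which escorts the polymerase to the promoter, and it had the highest rank of any of these genes in HSC 2. It ranked 481, 82, 983 and 1276 with folds of 64.8, 134.5, 215.4 and 148.3 and with summits 182 to 376 bp into the gene. Both HSC libraries ranked it above both LSC libraries, by 2.50 in mean log2 rank, and no other gene's window held the peak. Gtf2f2, the small TFIIF subunit, ranked 6306, 6256, 4947 and 2247, in the opposite direction. Gtf2b, which encodes TFIIB, ranked 697, 1590, 3918 and 2152, higher in both HSC libraries by 1.46, with summits between -140 and +74 bp and no shared gene.

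TFIIE showed the reverse at 1 of its 2 genes. Gtf2e1, the large TFIIE subunit, ranked 7307, 6893, 2201 and 2202, a difference of -1.69 in favour of LSCs, with a peak shared with Rabl3, whose start lay nearest the summit in 3 of the 4 libraries. Gtf2e2 ranked 5071, 2861, 4667 and 4185, and its groups overlapped. The 5 TFIIH genes of the symbol rule had median ranks of 5578, 6275, 4989 and 4827, with Gtf2h2 the lowest by its weakest rank, at 6950, 21963, 8701 and 6808. Gtf2a2, the small TFIIA subunit, ranked 14028, 7617, 7826 and 8241. Ranks of Gtf2h2 and Gtf2a2 turned on 1 HSC library each, and these libraries were not the same.

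Gtf2i, Gtf2ird1 and Gtf2ird2 encode the TFII-I family and lie side by side on chromosome 5. Gtf2i ranked 292, 1767, 233 and 3136, with the first library of each group at +1109 and +882 bp and the second at -177 and -179 bp. Its rank therefore varied more within groups than between them. Gtf2ird1 ranked 11502, 5139, 9107 and 7686, and Gtf2ird2 ranked 10307, 15074, 9438 and 9959. Gaps of 19685 and 39982 bp separate the 3 genes, and no peak was shared between them.

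The polymerase II genes had median ranks of 4315, 3777, 3881 and 2738. Polr2a encodes the largest subunit, which carries the heptad-repeat tail. It ranked 2977, 3952, 8465 and 7695 with folds of 38.8, 44.4, 58.4 and 45.3, so both HSC libraries placed it higher, by 1.23 in mean log2 rank. Its peak was 5083 to 6762 bp wide, covered the start of Polr2a and reached Slc35g3, and its summit moved from -1826 bp in HSC 1 to -612, +482 and -579 bp in the others. In both LSC libraries Polr2a had the lowest rank of its class.

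Polr2b, which encodes the second largest subunit, ranked 1544, 3715, 1712 and 1787 with summits at -108, -248, -139 and -222 bp. Polr2d and Polr2i were the other leading subunits, at 1571, 1895, 749 and 1359 and at 1998, 1498, 2527 and 2318. Polr2d has no annotated start in the tables used here, and the Polr2i peak was shared with Tbcb and Ovol3. The Polr2b promoter lies at chr5:77310234-77310533 on the plus strand and holds GGGCGG once, on the opposite strand.
Polr2b promoter: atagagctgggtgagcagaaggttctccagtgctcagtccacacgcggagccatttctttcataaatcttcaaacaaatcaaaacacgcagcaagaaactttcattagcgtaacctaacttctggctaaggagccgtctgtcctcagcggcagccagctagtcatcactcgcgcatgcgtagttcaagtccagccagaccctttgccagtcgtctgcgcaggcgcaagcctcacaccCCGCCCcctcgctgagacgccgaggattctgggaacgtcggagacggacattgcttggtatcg

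By the weakest of their 4 ranks, the lowest polymerase subunits were Polr2k, Polr2m and Polr2e. Polr2e, a subunit shared by all 3 nuclear polymerases, ranked 7561, 11393, 5366 and 5998. Polr2m ranked 8353, 12514, 5946 and 6040. Polr2k ranked 19236, 6696, 7733 and 7487, so that HSC 1 alone was low. Polr2l, another shared subunit, ranked 1312, 1282, 3881 and 2705. Its HSC summits lay 7553 and 7453 bp from its start, next to the start of Cd151, while its LSC summits lay at +56 and -113 bp. For Polr2l the higher HSC rank therefore belonged to a peak at Cd151, and its own start peak ranked 1690 and 4929 in the HSC lists.

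The ranks of the 2 groups were apart for 40 of the 78 genes present in all 4 lists of equal length. Both LSC libraries stood above both HSC libraries for 28 of 78 (35.9%), beside 30.8% of all such genes, and the reverse held for 12 (15.4%), beside 17.9%. Both shares lay near those of all genes, and the median difference in mean log2 rank was -0.33 for these genes and -0.20 for all. By class, LSC ranks were higher for 13 Mediator, 4 TFIID, 5 Gtf2 and 6 polymerase II genes, and HSC ranks for 4, 3, 2 and 3.

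After Taf3 and Gtf2e1, the largest differences in favour of LSCs among the 78 genes present in all 4 lists of equal length, which leave out Taf1a and Taf9b, were at Med28 (-1.60), Med4 (-1.25) and Taf1d. Med28, listed here with the head, ranked 1960, 2875, 1353 and 451, with summits 264 to 456 bp into the gene. Med4, a middle subunit, ranked 9058, 6383, 3647 and 2810. In favour of HSCs the largest difference among them was at Med16, a tail subunit, which ranked 54, 648, 1588 and 2155 (3.31). The HSC 1 peak of Med16 was 27144 bp wide and reached R3hdm4, Kiss1r and Arid3a, with its summit at -18733 bp from the Med16 start. In HSC 2 and LSC 1 the summit lay at +415 and +216 bp of that start, and in LSC 2 it lay 269 bp from the start of R3hdm4.

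Several of the genes that ranked higher in HSCs shared their peak with a neighbour. Of the 12, only 4 had a strongest peak that reached no other protein-coding gene in any library, and 6 had all 4 summits nearest their own start. Of the 28 that ranked higher in LSCs, 19 shared with no other gene, and 17 of the 22 with an annotated start had all 4 summits nearest it. Of the 38 genes whose groups overlapped, 21 shared with no other gene, and 23 of the 33 with an annotated start had all 4 summits nearest it. These are counts with no test, and the same counts over all genes were not made. Among the 12 genes higher in HSCs, Taf8, which encodes a TFIID histone-fold subunit, ranked 1570, 1100, 2917 and 3177. Its HSC summits lay 118 and 291 bp from a start of Ccnd3 and its LSC summits at +67 bp of its own.

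**Figure D3:**
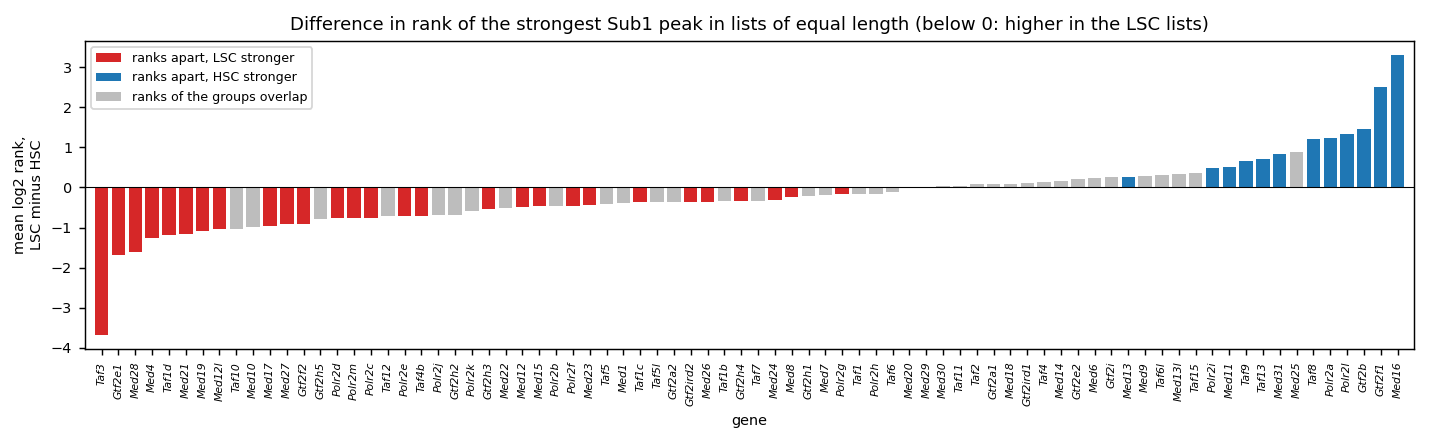
Difference in mean log2 rank of the strongest Sub1 peak, LSC minus HSC (y axis), for the 78 genes with a peak in all 4 lists of equal length, ordered from the lowest to the highest. Red bars mark genes whose LSC ranks both stood above the HSC ranks, blue bars the reverse and grey bars overlapping groups; Taf3 at -3.68 and Med16 at 3.31 are the ends.

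The number of peaks per gene differed between the groups in the deposited lists and not in lists of equal length. The median was 4 and 5 peaks per gene in HSC 1 and HSC 2 and 2 in each LSC library, with totals of 426, 660, 189 and 177 (log2 LSC over HSC of the medians -1.16; exact permutation p = 0.33). All protein-coding genes differed in the same direction, with medians of 2, 4, 1 and 1 peaks per gene in HSC 1, HSC 2, LSC 1 and LSC 2. In lists of equal length the median was 2 in each library, with totals of 179, 171, 158 and 177. The additional HSC peaks were therefore weaker ones from the longer lists.

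Most of the surplus lay inside the genes. For the 72 genes with an annotated start, peaks within 1 kb of a start numbered 87, 87, 73 and 73, while peaks in the remaining gene body numbered 254, 449, 78 and 60 and those within 1 kb of the far end 35, 61, 18 and 19. By geometric means the HSC lists held 1.19 times as many start peaks, 4.94 times as many body peaks and 2.50 times as many far-end peaks as the LSC lists, beside 1.34, 5.47 and 2.75 for all protein-coding genes. Body peaks made up 71.4 ± 5.42% of these genes' peaks in HSCs and 42.8 ± 4.72% in LSCs (SD, n = 2; exact permutation p = 0.33). For all protein-coding genes with an annotated start the body shares were 70.9%, 79.3%, 50.8% and 44.5% in HSC 1, HSC 2, LSC 1 and LSC 2. In lists of equal length the body share of these genes was 34.6%, 38.4%, 36.2% and 39.5%, so the groups overlapped. It was 46.3%, 45.9%, 45.6% and 44.5% there for all genes. A peak at the start was present for 68, 67, 69 and 68 of the 72 genes, beside 56.1%, 63.5%, 55.0% and 52.8% of all genes with an annotated start.

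**Figure D4:**
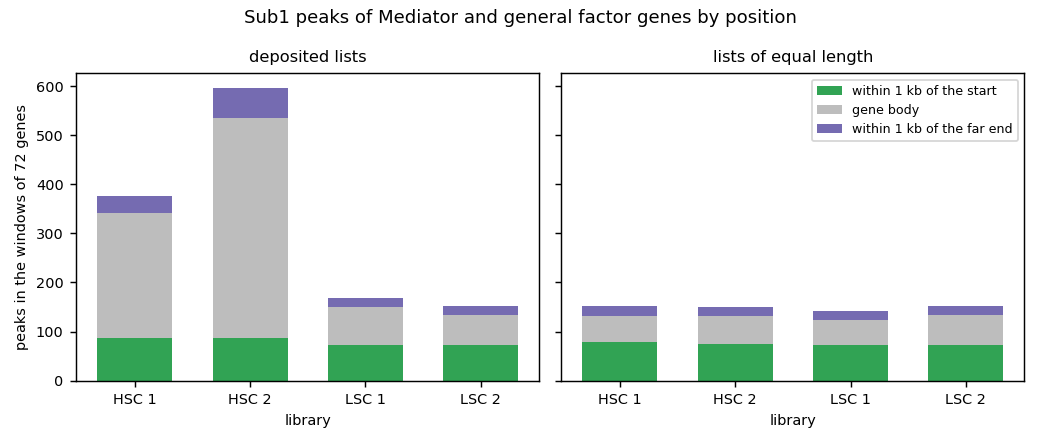
Number of Sub1 peaks (y axis) in the windows of the 72 genes with an annotated start, by library (x axis), split into peaks within 1 kb of a start, in the gene body and within 1 kb of the far end. In the deposited lists (left) body peaks reach 254 and 449 in HSC 1 and HSC 2 against 78 and 60 in the LSC lists, and in lists of equal length (right) they number 51 to 60.

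The strongest peak of most genes sat at the start of the gene. Its summit lay within 1 kb of an annotated start for 57 of 69 genes in HSC 1, 54 of 71 in HSC 2, 65 of 69 in LSC 1 and 62 of 69 in LSC 2, beside 64.1%, 52.9%, 76.8% and 77.2% of all genes with a peak. In all 4 libraries this held for 49 of 69 genes, beside 61.6% of all genes with a peak in all 4. Median positions were 182, 305, 216 and 169 bp into the gene. Among those 49 genes, 25 had all 4 summits downstream of the start and 8 had all 4 upstream; for all protein-coding genes these counts were 3233 and 797 of 6076. The 4 strongest peaks shared at least 1 base in 68 of the 80 genes with peaks in every library. The median distance between the outermost summits was 332 bp, and it was at most 500 bp in 52 genes. How often peaks and summits agreed to this degree over all genes was not counted.

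**Figure D5:**
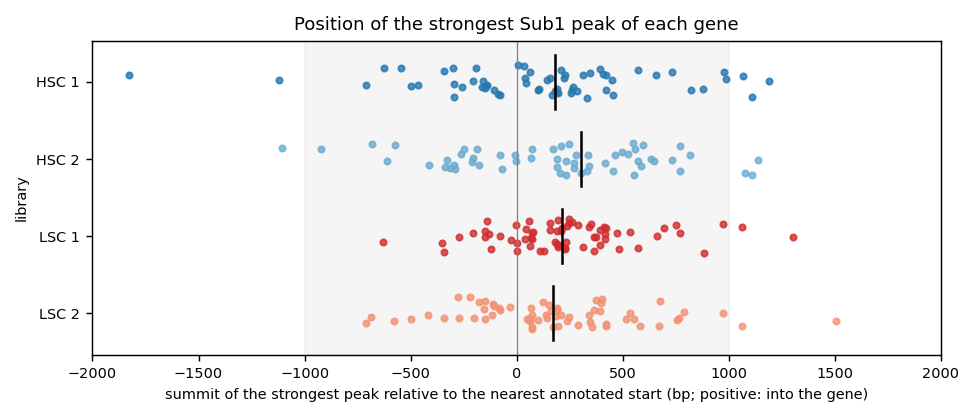
Position of the summit of the strongest Sub1 peak of each gene relative to its nearest annotated start (x axis, bp; positive values lie inside the gene) in each library (y axis), shown up to 2 kb either way. Black lines are medians over all genes with a peak and a start, at 182, 305, 216 and 169 bp, and the shaded band is 1 kb either side of the start.

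The strongest peak also reached the window of another protein-coding gene for 30, 34, 27 and 30 genes, and its summit lay nearer to the start of another gene for 18, 15, 12 and 17 of the 69, 71, 69 and 69 genes with a peak and a start. In 46 of 80 genes it reached no other gene in any library. The same counts over all genes were not made, so these describe the set alone. No peak was shared between 2 of the 83 genes, although Taf6l and Polr2g are 6711 bp apart and Med17 and Taf1d 26046 bp apart.

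Promoter sequence was compared over the 300 bp windows of RefSeq (GRCm38.p6), which matched 72 of the 83 genes with 87 windows. The median ratio of observed to expected CpG was 0.852 for these genes, 0.773 for all genes with a start peak in every library and 0.564 for all genes. The Ets-family motif CCGGAAG, searched like the others on both strands, was present in 27 of the 87 windows (31%), against 19.5% of windows of genes with a start peak in every library and 11.6% of all windows. By class it was found in 30% of Mediator, 35.7% of TFIID, 29.4% of Gtf2 and 25% of polymerase II windows. Med19, Taf3, Taf1a, Taf1c, Gtf2f1 and Med4 were among the genes that hold it. So were Taf13, which ranked higher in HSCs, and Med10, Med18 and Taf12, whose groups overlapped. Whether this or any other motif goes with a direction of rank was not tested. The Sp-family motif GGGCGG was present in 63.2%, close to the 63.5% of genes with a start peak in every library, with 46.2% over all windows.

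Beside all windows, the other motifs were near their general shares or rare. TATAAA lay above its share for genes with a start peak in every library. CCAAT was found in 33.3% of the windows and in 38.2% of all windows. TATAAA was found in 13.8%, against 6.66% for genes with a start peak in every library and 12.6% of all windows, and Polr2a, Med16, Med28 and Gtf2f1 were among the 12. The Creb motif TGACGTCA was present in 3.45% (2.23% of all windows), the Yy1 motif in 2.30% (0.889%), and the Nrf1 motif in none (1.33%). A match describes these letters in the window and does not show that a factor binds there.

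The X-linked genes of the set are Med12, Med14, Taf1, Taf7l and Taf9b. Their median rank, with a gene lacking a peak placed last, was 13611, 9567, 8639 and 7767, against 4157, 4148, 4428.5 and 3957.5 for the 78 autosomal genes. Over all protein-coding genes with a peak in the lists of equal length, the X-linked genes had median ranks of 9162, 7846, 8275 and 7541 and the autosomal genes 4899, 5266, 5412 and 5032.5. X-linked genes stood lower than autosomal genes in every library in both comparisons, which are descriptions with no test.

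Of 22 partner genes outside the symbol rule, whose products work with these factors, 21, 22, 21 and 21 had a peak, beside 68.9%, 82.4%, 61.8% and 57.4% of all genes. Among the strongest 8546 peaks of all 4 libraries were 18 of them, beside 32.7% of all genes. Tbp, which encodes the TATA-binding protein of TFIID, ranked 356, 614, 259 and 598. Sub1 itself ranked 6528, 9843, 6275 and 8341. The kinase partners of Med12 and Med13 went in different directions: Cdk8 ranked 76, 1819, 5660 and 7000 and Cdk19 2274, 3641, 4793 and 7172, higher in both HSC libraries, while Ccnc, which encodes their cyclin, ranked 3408, 3944, 1117 and 688. Ranks were apart for 4 partners in favour of LSCs and for 5 in favour of HSCs among the 21 present in all lists of equal length, beside 30.8% and 17.9% of all genes present there. Tbpl2, an oocyte relative of Tbp, had peaks in HSC 2 alone, the strongest at rank 129545, in the same library that alone held peaks of Taf7l and Gtf2a1l.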

How the data were processed

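Sub1 CUT&Tag peak lists of 2 HSC and 2 LSC libraries were used, 1 deposited list per library. Per the submitters' processing notes, FastQC 0.11.5, Bowtie2 2.2.9, MACS2 and ChIPseeker were used with build mm10; settings, control and handling of duplicates are not given in the sources used here. Per the labels' protocols, libraries were amplified with 17 to 20 PCR cycles. For each peak the authors deposited a fold, which is a ratio of its pileup over background, a -log10 p, a -log10 q and a score that is 10 times -log10 q. Depth was taken as the caller's constant background, solved from fold and -log10 p of 400 peaks per library, since read totals are not in these lists. The lowest -log10 q was 5.21 to 5.41.

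Genes came from RefSeq (GRCm38.p6). A gene had a peak when 1 bp overlapped the gene extended by 1 kb. Peaks were ranked by -log10 p. Lists of equal length held the strongest 34185 peaks, the length of the shortest list, and shorter lists 17092, 8546 and 4273. Starts and strand came from the RefSeq promoter table (250 bases before to 50 after a start), which matched 72 of the 83 genes; 11 have no start there. Peaks within 1 kb of a start were start peaks, then far-end peaks, and the rest body peaks. Ranks were called apart when both libraries of 1 group stood above both of the other. Single values were compared between groups by a two-sided exact permutation test over the 6 assignments of 4 libraries, threshold 0.05, smallest p 0.33; such p-values measure only the spread between these libraries, which may be technical. Counts of genes had no test, except the number per library with a peak among the strongest 8546. Overlap counting was tested on simulated data. The tools were SciPy 1.17.1, pandas 2.3.3, NumPy 2.4.6 and matplotlib 3.10.9 under Python 3.11.15.

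Genes named are those without a peak in a library, the 3 with the best and the 3 with the worst weakest rank of each class, those present in both lists of 1 group alone, the 5 largest rank differences each way, paralog pairs and Polr2a; others were named after their values were seen. The members and lists were chosen with earlier results of these data known. Alternatives changed the window, the peak threshold, the list length, the ranking, the overlap, the libraries and the pairing. Reads and coverage tracks were not analysed here.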

Additional observations from a re-analysis of the deposited data

How the results depend on the processing

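The number of genes with a peak in all 4 libraries (80) ran from 56 to 80 under the other windows, thresholds and list lengths down to 8546 peaks, and was 28 at 4273; the lengths 17092 and 4273 were added for this count after seeing the data. The LSC minus HSC difference in median rank was -347.5 and changed sign without HSC 2, running from -717 to 22 when 1 library was left out. As a percent of each deposited list the difference was 8.84, since the HSC lists are longer. The difference in peaks per gene (log2 -1.16) was 0 in lists of equal length, and -1.32 to -1 with 1 library left out. Genes present in LSCs alone (both libraries) numbered 0 in the deposited lists, 2 in lists of equal length and 2 at each shorter length, and 0 with any 1 library left out. The opposite count was 0 in the deposited lists, 3 at 4273 peaks (Med31, Polr2a and Taf13) and 2 without HSC 1 (Taf7l and Gtf2a1l). Genes in all 4 lists of the strongest 4273 peaks were 14 Mediator, 6 TFIID, 3 Gtf2 and 5 polymerase II genes, against 22, 15, 10 and 9 at 8546, and with 1 library left out the latter ran over 22 to 25, 15 to 17, 10 to 12 and 9 to 11. Without genes whose strongest peak reached another gene, an alternative chosen after seeing the data, the rank difference was -729.5. Libraries of the same number share only a number; their deviations correlated at 0.278 over 10786 genes, and with the replicate block the differences were -347.5 (exact permutation p = 1.0) and -1.16 (p = 0.5). Depth limits the absent peaks: a gene without a peak in a short list may carry signal under the caller's threshold.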
